A study of Rattus norvegicus with 17 samples.

Results

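The collagen genes of the rat encode the chains of collagens, proteins whose 3 chains wind into a triple helix. They were taken here as every gene whose whole symbol reads Col, a number, a and a number, each gene identifier counted 1 time. This gave 44 genes of the 30560 in the count table. All 44 passed the filter on low counts, which 18005 genes passed in all. By class, 11 encode fibrillar chains, 6 type IV chains of basement membranes, 6 type VI chains of beaded filaments, 1 the type VII chain of anchoring fibrils and 3 short-chain network chains. A further 9 encode fibril-associated collagens, 4 transmembrane collagens and 2 multiplexins, and 2 stand outside these classes.

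The libraries came from testes of wild type Sprague Dawley rat fetuses on gestational day 21. Their dams received corn oil alone (vehicle, n = 3) or dipentyl phthalate (DPeP), a phthalate ester used to soften plastics, in corn oil at 1 (n = 3), 11 (n = 3), 100 (n = 3) or 300 mg/kg/d (n = 5). Dosing was by gavage of 2.5 mL/kg from gestational day 17 to 21. A library held RNA of 1 testis, or of 2 testes pooled within a litter, and the labels used here do not say whether the libraries had separate dams. The p values below therefore measure the spread between these libraries, which may in part be shared between fetuses of a dam.

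As background, fibrillar collagens of types I and III form the tensile fibres of connective tissue, and type V chains are built into those fibres. Type IV collagen is the sheet-forming collagen of basement membranes, which in the testis underlie the Sertoli cells of the seminiferous cords and surround blood vessels. Type VI collagen forms fine beaded filaments next to cells, while fibril-associated collagens, such as type IX, sit on the surface of fibrils. Collagens of types II and IX are best known from cartilage, where type IX decorates fibrils of type II.

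Libraries held 14282274 to 20323488 gene counts. In vehicle, 1.83% to 2.04% of these lay in collagen genes. At 100 mg/kg/d, replicates 05 and 18 differed from the rest, with 1.19% and 1.51% of counts in collagen genes and 9.05% and 7.76% in mitochondrial genes. The other 15 libraries had 4.35% to 6.16% of counts in mitochondrial genes. Leaving out genes with few counts, the correlation of log2 level with log2 exon length was 0.246 and 0.274 in replicates 05 and 18. In the other 15 libraries it was 0.275 to 0.331, and its part in the collagen values was not tested. Replicate 19, the remaining library at 100 mg/kg/d, had 1.87% in collagen genes and 5.26% in mitochondrial genes. Results at this dose are therefore given with and without replicates 05 and 18. The counts of no pair among the 136 pairs of libraries agreed within sampling noise.

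Sequence upstream of 35 of the 44 genes was found by symbol in RefSeq promoter windows of the build GRCr8. The stretch between the starts of Col4a1 and Col4a2 is shown first, because these genes encode the chains of the main type IV collagen. They lie head to head, so that in these windows a single short stretch precedes both. It is 76 bases long, read 5′ to 3′ on the strand of Col4a1, and lies at chr16:84885521-84885596. Capitals mark CCGCCC, which is the GC box GGGCGG on the other strand.
Col4a1 and Col4a2: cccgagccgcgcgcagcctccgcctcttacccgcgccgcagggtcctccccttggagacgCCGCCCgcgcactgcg
This stretch is 78.9% G and C, against a median of 53.9% over all windows of the same length. GGGCGG, searched on both strands, was in 18.1% of all 33469 windows of that length. The CCAAT box (CCAAT, both strands) was absent from the stretch and present in 13.0% of windows of that length. The starts of Col4a3 and Col4a4 lay 412 bases apart and those of Col4a5 and Col4a6 1414 bases apart, also on opposite strands. These distances hold for the GRCr8 windows. In the gene models used for the counts, Col4a1 and Col4a2 overlap and share 286 bases of exon, and Col4a3 and Col4a4 overlap and share 316.

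The 250 bases before the starts of Col9a1 and Col9a2 are shown because both genes, which encode different chains of type IX collagen, changed in the same direction at the highest dose. They lie at chr9:34081114-34081363 and chr5:139892548-139892797, each on the plus strand. No capitals stand in either, because none of the motifs searched was found on either strand: the CCAAT box, the GC box, the TATA box (TATAAA), or the SOX-type motifs named below. The same length before Col6a6, a type VI chain gene that changed in the opposite direction, lies at chr8:115352162-115352411 on the minus strand, with ACAATG in capitals. This window also holds the GC box, read on the other strand and left in lower case, which stood in 30.5% of all windows of 250 bases.
Col9a1: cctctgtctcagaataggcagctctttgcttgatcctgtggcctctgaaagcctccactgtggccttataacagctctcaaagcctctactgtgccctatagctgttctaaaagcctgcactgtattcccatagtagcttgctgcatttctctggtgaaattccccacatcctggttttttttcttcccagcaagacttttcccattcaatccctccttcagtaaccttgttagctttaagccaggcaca
Col9a2: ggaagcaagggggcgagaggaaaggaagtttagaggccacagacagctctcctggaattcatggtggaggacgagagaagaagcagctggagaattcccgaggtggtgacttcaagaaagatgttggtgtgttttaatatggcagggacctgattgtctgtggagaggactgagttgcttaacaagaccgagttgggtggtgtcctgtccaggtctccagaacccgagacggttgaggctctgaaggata
Col6a6: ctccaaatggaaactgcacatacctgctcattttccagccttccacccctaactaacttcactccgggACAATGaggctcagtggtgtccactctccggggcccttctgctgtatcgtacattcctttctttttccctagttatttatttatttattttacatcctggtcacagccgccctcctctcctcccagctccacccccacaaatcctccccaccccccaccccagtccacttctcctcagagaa
ACAAAG and ACAATG are short forms of the letters that SOX factors bind. Over 250 bases, ACAAAG stood in 16.3% of all windows and in 3 of the 35 collagen windows, and ACAATG in 11.1% of all windows and in 2 of the 35. Such matches describe letters only. No window was found for 9 collagen genes, among them Col1a1, Col2a1, Col3a1, Col9a3 and Col22a1.

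Levels are given per length as RPKM, reads scaled to exon length in units of 1000 bases and to library size, so that genes can be compared. In vehicle, the collagen genes spanned several orders of magnitude. Col3a1, the single chain of type III collagen, was highest with 1224, 1191 and 1178 RPKM in replicates 01, 08 and 15, which was 33.9% of the summed collagen level. Col1a1 and Col1a2, the chains of type I collagen, followed with means of 538 ± 46.5 and 397 ± 37.4 RPKM (SD, n = 3). These 3 genes made up 60.4% of the sum, and the 10 highest genes 92.1%. The next were Col4a1 at a mean of 263 ± 35.3 and Col4a2 at 181 RPKM, the fibril chain genes Col5a2 at 167 and Col5a1 at 133, and Col6a1 and Col6a2 at 165 and 133. Among these 9 genes, neighbours in the order whose vehicle libraries overlapped were Col4a2 and Col5a2, Col5a2 and Col6a1, and Col6a2 and Col5a1. In all, 9 genes reached 100 RPKM, 18 reached 10 and 37 reached 1, while 7 lay below 1 RPKM.

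**Figure D1:**
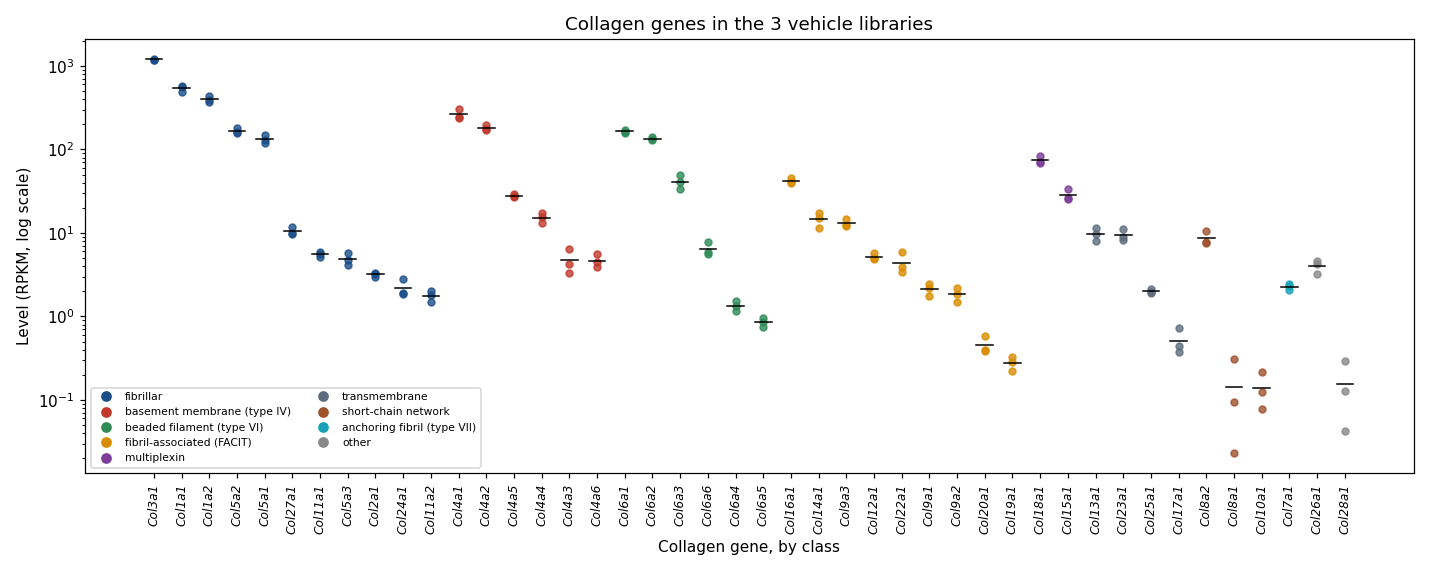
Level of each of the 44 collagen genes in the 3 vehicle libraries, in RPKM on a log axis, with genes ordered by class and then by mean. Points are libraries and short lines are means; Col3a1 is highest at a mean of 1197 RPKM and 7 genes lie below 1 RPKM.

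Some chains that are built into the same molecule were found in similar proportions in the 17 libraries. The ratio of Col1a1 to Col1a2 in RPKM ranged from 1.30 to 1.53 over the 17 libraries, with a median of 1.39. Col4a1 to Col4a2 ranged from 1.33 to 1.58 and Col6a1 to Col6a2 from 1.17 to 1.37. The ratio was 0.246 to 0.374 for Col4a3 to Col4a4, 5.19 to 7.71 for Col4a5 to Col4a6 and 0.210 to 0.300 for Col6a3 to Col6a1. Col5a1 to Col5a2 moved more, from 0.481 to 1.08, with the lowest value in replicate 05 at 100 mg/kg/d. These ratios are descriptions, since both genes of a pair share their library and its depth. The kit does not mark strand, and Col4a1 and Col4a2 share 286 bases of exon on opposite strands in the authors' gene models, as Col4a3 and Col4a4 share 316, so reads there cannot be told apart.

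At 300 mg/kg/d, 7 of the 44 collagen genes changed against vehicle by edgeR's quasi-likelihood test with Benjamini-Hochberg adjustment over all genes tested, where 2.40% of all genes tested were called. The chain genes of type II and type IX collagen rose 2.03- to 3.08-fold (Col2a1, Col9a1, Col9a2 and Col9a3), and Col18a1, a multiplexin of basement membranes, rose 1.53-fold. Col22a1, a fibril-associated collagen of tissue junctions, and the type VI chain gene Col6a6 fell. Thus 5 genes rose, where 0.994% of all genes tested rose, and 2 fell, where 1.41% fell. The abundant chain genes of types I, III, IV, V and VI were not among those called. The median log2 fold change of the 44 was 0.22, against 0.01 over all genes tested, with 31 values above 0 and 13 below. In 16 of the 44 the libraries of the groups did not overlap, and 12.3% of all genes tested had no overlap.

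Col2a1 encodes the chain of type II collagen, the main fibril of cartilage. In vehicle it stood at 2.95, 3.24 and 3.36 RPKM. At 300 mg/kg/d replicates 06, 07, 13, 14 and 20 had 9.98, 9.17, 11.5, 9.26 and 9.12 RPKM. All 5 were above every vehicle library and differed little among themselves. The log2 fold change was 1.62 ± 0.18 (SE), 3.08-fold, with an adjusted p of 1.11e-05 by edgeR's quasi-likelihood test. At 100 mg/kg/d replicates 05, 18 and 19 had 5.98, 8.97 and 7.22 RPKM, again all above vehicle, for a log2 fold change of 1.22 ± 0.19 (adjusted p = 0.00196). The libraries at 1 mg/kg/d (3.79, 3.06 and 2.09 RPKM) overlapped with vehicle, and so did those at 11 mg/kg/d (4.74, 3.69 and 3.09 RPKM).

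The 3 chains of type IX collagen each come from a gene on its own chromosome, Col9a1 on 9, Col9a2 on 5 and Col9a3 on 3. Col9a3 was the most abundant, at 12.0, 12.3 and 14.7 RPKM in vehicle and 26.2, 26.3, 35.1, 23.6 and 27.2 RPKM at 300 mg/kg/d. Its log2 fold change was 1.09 ± 0.15 (adjusted p = 0.000214). Col9a1 stood at 1.78, 2.45 and 2.18 RPKM in vehicle and at 3.65, 3.94, 5.45, 4.18 and 4.53 RPKM at 300 mg/kg/d. Its log2 fold change of 1.02 ± 0.19 (adjusted p = 0.0031) was close to that of Col9a3. For Col9a2, vehicle libraries held 1.85, 2.21 and 1.49 RPKM and those at 300 mg/kg/d 3.07, 4.57, 7.38, 5.22 and 4.07 RPKM. It had the widest spread of these genes, with a log2 fold change of 1.39 ± 0.27 (adjusted p = 0.00516). In each of the genes all 5 libraries at 300 mg/kg/d lay above all vehicle libraries, and replicate 13 was the highest. Without vehicle replicate 15, the adjusted p of Col9a2 was 0.0546.

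At 1 and 11 mg/kg/d none of the type IX chain genes was called. Col9a3 ranged from 10.5 to 14.7 RPKM over these 6 libraries and Col9a1 from 1.23 to 2.07 RPKM. The ratio of Col9a1 to Col9a3 ranged from 0.117 to 0.199 over all 17 libraries. That of Col9a2 to Col9a3 ranged more widely, from 0.101 to 0.245.

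Col18a1 encodes a heparan sulfate-bearing collagen of basement membranes, whose end fragment is endostatin. Vehicle libraries held 83.5, 68.5 and 70.5 RPKM and those at 300 mg/kg/d 93.5, 97.9, 143, 125 and 110 RPKM. The groups did not overlap, and the log2 fold change was 0.62 ± 0.15 (adjusted p = 0.0262). At 100 mg/kg/d it stood at 59.1, 92.3 and 82.2 RPKM, around the vehicle values, with a log2 fold change of 0.07 ± 0.16 (adjusted p = 0.835). The call at 300 mg/kg/d was lost without vehicle replicate 08 or 15, without replicate 13, 14 or 20 of the dose group, and when sample code was added as a term, with adjusted p values up to 0.15. Col15a1, the other multiplexin, differed by -0.20 ± 0.21 on the log2 scale, which was not called (adjusted p = 0.75).

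Col22a1 was the collagen gene that fell most. Vehicle libraries held 5.92, 3.44 and 3.89 RPKM and those at 300 mg/kg/d 1.61, 2.43, 1.62, 1.48 and 1.93 RPKM, all below vehicle. The log2 fold change was -1.28 ± 0.20 (adjusted p = 0.000951). The libraries at 100 mg/kg/d held 1.89, 1.49 and 1.84 RPKM (log2 fold change -1.34 ± 0.24, adjusted p = 0.0047). At 11 mg/kg/d they held 3.38, 2.85 and 1.98 RPKM, also below all 3 vehicle libraries, but the adjusted p of the difference (-0.69 ± 0.23) was 0.992. It was the only collagen gene with an unadjusted p under 0.05 at that dose. At 1 mg/kg/d, with 5.56, 5.34 and 3.50 RPKM, it overlapped with vehicle.

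Col6a6 encodes an additional type VI chain that resembles the chain of Col6a3. It stood at 7.80, 5.56 and 5.90 RPKM in vehicle, and at 3.86, 3.91, 2.44, 3.02 and 3.26 RPKM at 300 mg/kg/d. The log2 fold change was -0.96 ± 0.19 (adjusted p = 0.00795), and without vehicle replicate 01 the adjusted p was 0.0742. At 100 mg/kg/d the values of 2.77, 2.17 and 3.49 RPKM were again all below vehicle (log2 fold change -1.19 ± 0.22, adjusted p = 0.00804). Of its exon bases, 4.73% are shared with Pik3r4 on the opposite strand. At 1 and 11 mg/kg/d the gene ranged from 5.52 to 10.6 RPKM and was not called.

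**Figure D2:**
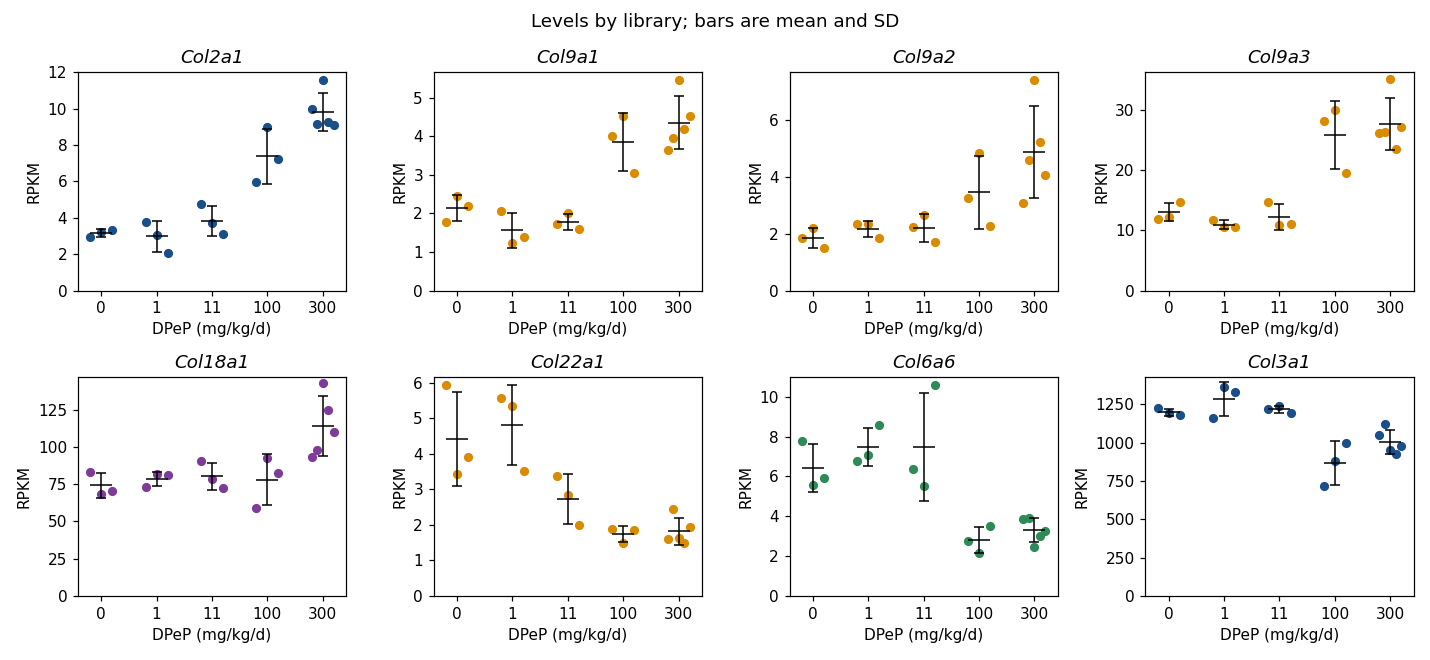
Level in RPKM of the 7 collagen genes called at 300 mg/kg/d and of Col3a1, by dose of DPeP in mg/kg/d, with 1 point per library and bars for mean and SD (n = 3, 3, 3, 3 and 5). For Col2a1 and the type IX genes the 5 libraries at 300 mg/kg/d lie above all vehicle libraries, and for Col22a1 and Col6a6 below them.

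Several cell type markers moved with these genes. In bulk tissue, fewer cells of a type and less RNA per cell cannot be told apart. Calls of markers at 300 mg/kg/d stand beside 0.994% of all genes tested that rose and 1.41% that fell. Of 5 Sertoli cell markers, 4 rose at 300 mg/kg/d (Amh, Clu, Dhh and Sox8). The summed level of the 5 was 1222 to 2308 RPKM, against 743 to 1026 RPKM in vehicle. Amh made up most of that sum, with 1084 to 2152 RPKM at 300 mg/kg/d and 669 to 928 RPKM in vehicle. Sox9, the Sertoli transcription factor that is also active in cartilage, had a log2 change of 0.48 ± 0.18 (adjusted p = 0.211). The Schwann cell markers Sox10 and Erbb3 rose at 300 mg/kg/d, by log2 changes of 1.98 ± 0.30 and 1.45 ± 0.22 (adjusted p = 0.000533 for each). All 5 Leydig cell markers fell, with a sum of 279.9 to 455 RPKM against 1312 to 1731 RPKM in vehicle. Of 5 interstitial fibroblast markers 1 fell (Dpt), with sums of 381 to 471 against 412 to 458 RPKM, and of 5 macrophage markers 1 fell (Tyrobp), with sums of 32.5 to 45.1 against 55.1 to 69.5 RPKM. Tyrobp made up most of that sum, with means of 48.5 RPKM in vehicle and 23.9 RPKM at 300 mg/kg/d, while Csf1r had means of 6.52 and 6.15 RPKM. None of the endothelial, peritubular myoid, germ cell or mesonephric duct markers was called at 300 mg/kg/d. Sums of the 6 endothelial markers were 79.3 to 94.9 against 105 to 107 RPKM in vehicle, and those of the 5 peritubular myoid markers 496 to 774 against 495 to 510 RPKM. The part of these markers in the collagen values was not tested.

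Cartilage markers were read because type II and IX collagens mark that tissue. None of 5 was called at 300 or 100 mg/kg/d, and their summed level was 3.88 to 4.39 RPKM in vehicle and 3.43 to 4.83 RPKM at 300 mg/kg/d. The sum joined opposite directions, with 2 log2 fold changes above 0 and 3 below at 300 mg/kg/d, and a median of -0.51. Acan, the large proteoglycan of cartilage, stood at 1.28, 1.43 and 1.28 RPKM in vehicle and at 1.95, 1.84, 2.17, 2.49 and 2.14 RPKM at 300 mg/kg/d. Its log2 fold change was 0.67 ± 0.20 (adjusted p = 0.08), and its slope on log2(dose + 1) over all 17 libraries was called (0.07 ± 0.02, adjusted p = 0.0426), the only one of the list. Hapln1, which links proteoglycan to hyaluronan, had -1.29 ± 0.44 (adjusted p = 0.147) and at most 34 counts in a library. Matn1, Matn3 and Cnmd had at most 20, 24 and 35 counts. For markers with so few counts a missing call says little. No marker of the list was at 0 in all libraries.

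The other fibrillar genes gave no further call at 300 mg/kg/d, and the class had a median log2 fold change of 0.29. Col3a1 was below vehicle in all 5 libraries, with 1048, 1121, 953, 925 and 980 RPKM, but the difference of -0.25 ± 0.11 on the log2 scale gave an adjusted p of 0.292. Col1a1 was between 488 and 661 RPKM (log2 fold change 0.08 ± 0.14, adjusted p = 0.869) and overlapped with vehicle. Col5a3, Col11a1, Col11a2, Col24a1 and Col27a1, all minor fibrillar genes here, had log2 fold changes of 0.29 to 0.43, with adjusted p values from 0.209 to 0.532. Of the 6 type IV genes 4 had values above 0. Col4a4, which with Col4a3 belongs to the network of specialised basement membranes, came nearest to a call. It stood at 17.3, 15.4 and 13.1 RPKM in vehicle and at 19.1, 22.3, 18.3, 20.3 and 26.6 RPKM at 300 mg/kg/d, with no overlap, for a log2 fold change of 0.48 ± 0.13 (adjusted p = 0.0558). Col4a1 had 0.20 ± 0.16 (adjusted p = 0.663) and Col4a5, on the X chromosome, -0.30 ± 0.10 (adjusted p = 0.139).

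The other classes held mostly small differences. The type VI genes other than Col6a6 had log2 fold changes from -0.10 for Col6a2 to 0.36 for Col6a5. The 4 transmembrane genes, such as Col13a1 and Col23a1, had log2 fold changes of 0.04 to 0.24, and the smallest adjusted p among them was 0.628. Col7a1, the chain of anchoring fibrils, had 0.13 ± 0.16 (adjusted p = 0.8). Of the other fibril-associated genes, Col16a1, Col12a1, Col14a1, Col19a1 and Col20a1 were not called. Col20a1 shares 27.5% of its exon bases with Arfgap1 on the same strand, so its counts are uncertain. Col8a1, a short-chain network gene, had the highest log2 fold change of all 44, 1.91 ± 0.64, but with 1 to 35 counts per library its adjusted p was 0.146. Col26a1 and Col28a1 were not called either.

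**Figure D3:**
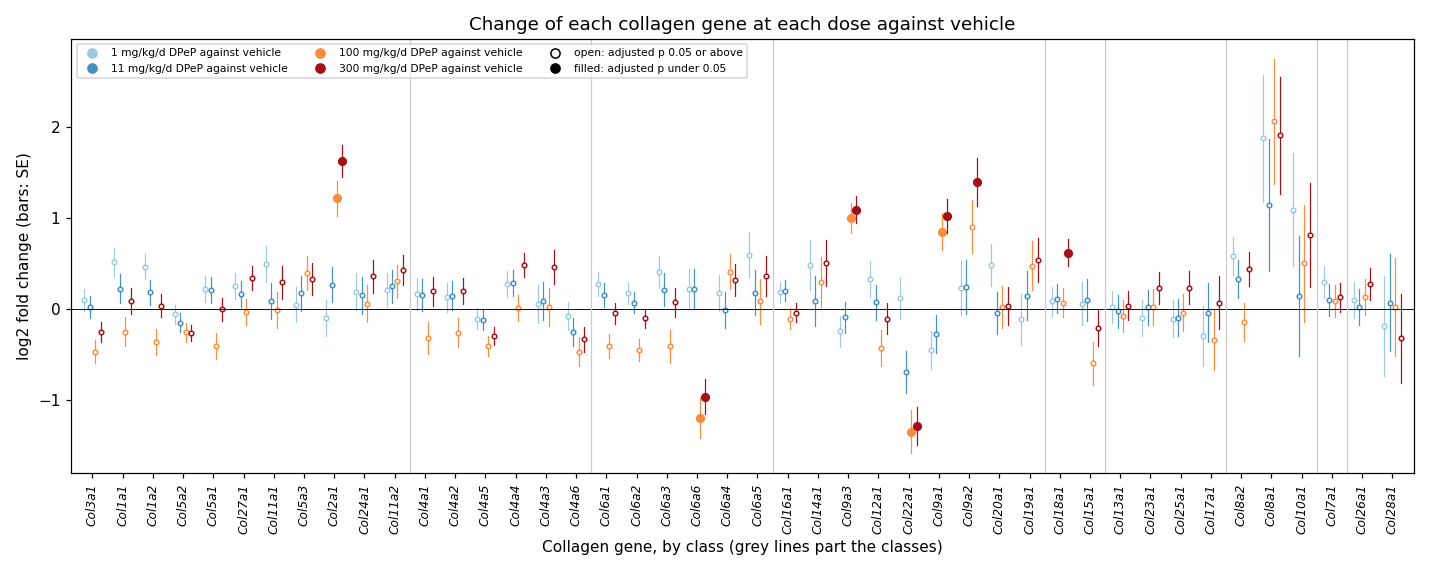
Log2 fold change against vehicle of each collagen gene at 1, 11, 100 and 300 mg/kg/d, ordered by class, with bars of 1 SE and filled points where the adjusted p was under 0.05. Filled points stand at the 2 higher doses, 5 at 100 mg/kg/d and 7 at 300 mg/kg/d, and all 4 comparisons share the vehicle libraries.

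At 100 mg/kg/d, 5 of the 44 genes were called, where 1.52% of all genes tested were called. Col2a1, Col9a1 and Col9a3 rose, where 0.494% of all genes tested rose, and Col22a1 and Col6a6 fell, where 1.03% fell. Col9a3 had 28.2, 30.1 and 19.5 RPKM in replicates 05, 18 and 19, all above vehicle, for a log2 fold change of 1.00 ± 0.16 (adjusted p = 0.0028). Col9a1 had 3.99, 4.51 and 3.05 RPKM (0.85 ± 0.20, adjusted p = 0.0387), and Col9a2 3.26, 4.82 and 2.27 RPKM (0.90 ± 0.29, adjusted p = 0.112). For all 3 type IX genes replicate 19 was the lowest of the group. The call of Col9a1 was lost in 8 of 12 alternatives, and that of Col6a6 without replicate 18 (adjusted p = 0.0692) or without vehicle replicate 01 (adjusted p = 0.0595). The median log2 fold change of the 44 was -0.02, against 0.05 over all genes tested, and 14 genes had no overlap, where 15.0% of all genes tested had none.

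The summed levels of the type IV and type VI genes were lower in replicates 05 and 18 than in any vehicle library. Summed type IV levels were 302, 393 and 526 RPKM in replicates 05, 18 and 19, against 462 to 556 RPKM in vehicle, and summed type VI levels were 204, 251 and 321 RPKM, against 332 to 361 RPKM. Col3a1 had 720, 881 and 1001 RPKM, below all vehicle libraries, with a log2 difference of -0.47 ± 0.12 (adjusted p = 0.0586). Col6a2, a core type VI chain, had -0.45 ± 0.12 (adjusted p = 0.0613). Endothelial markers had a sum of 65.5 to 86.0 RPKM at this dose, against 105 to 107 RPKM in vehicle. Of this sum Cdh5 had 20.1 to 38.2 RPKM, against 46.2 to 53.2 RPKM in vehicle. Emcn went the other way in replicates 05 and 18, with 27.2 and 20.5 RPKM against 15.3 to 16.8 RPKM in vehicle. Of 6 endothelial markers 1 fell (Cdh5), and all 5 Leydig cell markers fell, where 1.03% of all genes tested fell and 0.494% rose. None of the Sertoli cell markers was called, with sums of 1115 to 1240 RPKM, of which Amh made up 1008 to 1130 RPKM. The Schwann cell marker Sox10 rose (1.57 ± 0.32, adjusted p = 0.0153). Of 5 germ cell markers 1 rose (Dazl, 0.82 ± 0.16, adjusted p = 0.0109), and their sums were 225 to 340 RPKM, against 168 to 203 RPKM in vehicle. None of the peritubular myoid markers was called, with sums of 326 to 588 RPKM against 495 to 510 RPKM. The part of the mitochondrial share and of these markers in the collagen values was not tested.

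Without replicates 05 and 18, replicate 19 alone stood for 100 mg/kg/d and was taken to vary like the other groups. The test then called 2 collagen genes, Col2a1 with a log2 fold change of 1.16 (adjusted p = 0.0327) and Col4a5 with -0.65 (adjusted p = 0.044). Col9a3 had 0.57 (adjusted p = 0.198), Col9a1 0.49 (adjusted p = 0.41), Col6a6 -0.89 (adjusted p = 0.204) and Col22a1 -1.28 (adjusted p = 0.131). Col4a1 went from -0.32 with all 3 libraries to 0.10, and Col4a2 from -0.26 to 0.10. Without replicate 19 the test instead called 16 collagen genes, among 4250 genes in all. It called 3 without replicate 18, among 93 genes in all, or without vehicle replicate 01, among 94.

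**Figure D4:**
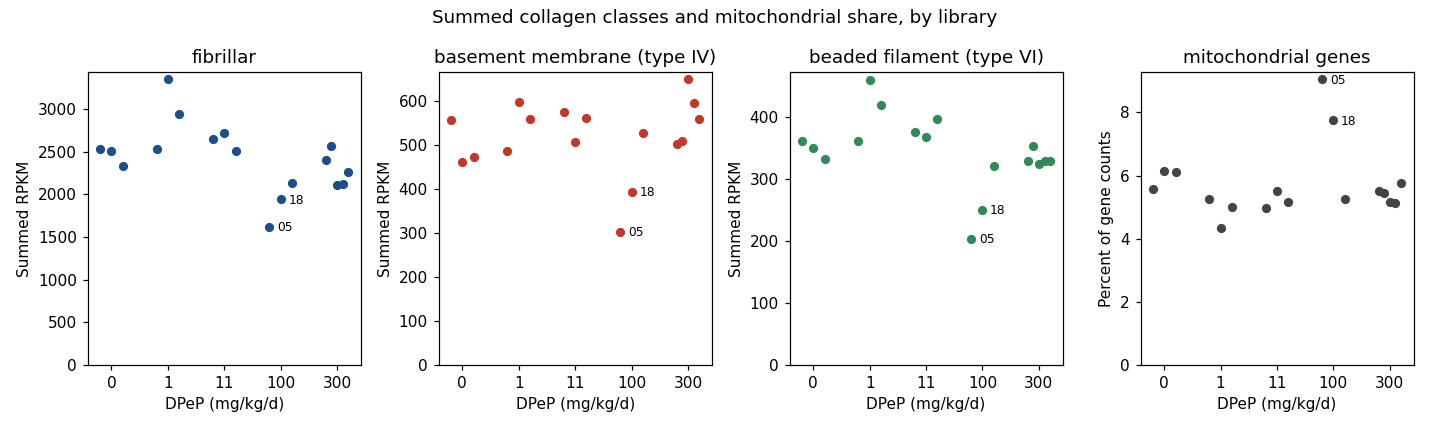
Summed RPKM of the fibrillar, type IV and type VI genes, and percent of gene counts in mitochondrial genes, by dose of DPeP in mg/kg/d, with 1 point per library. Replicates 05 and 18 at 100 mg/kg/d, marked by number, are lowest in the summed classes and highest in the mitochondrial share.

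At 11 and 1 mg/kg/d no collagen gene was called by edgeR's quasi-likelihood test, where 0.00% of all genes tested were called. With an unadjusted p under 0.05 there was 1 of the 44 at 11 mg/kg/d, among 633 of all genes tested, and 9 of the 44 at 1 mg/kg/d, among 891. DESeq2 called no collagen gene at either dose. At both doses 33 of 44 values lay above 0, with medians of 0.11 and 0.18, against 0.01 over all genes tested. Groups did not overlap for 6 of the 44 at 11 mg/kg/d and for 9 at 1 mg/kg/d, where 12.2% and 14.1% of all genes tested had no overlap. Since both comparisons share the vehicle libraries, these counts are not separate results.

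At 1 mg/kg/d the type I chain genes had the smallest p values, with Col8a2, the second short-chain gene. Col1a1 stood at 612, 949 and 736 RPKM in replicates 02, 09 and 10, all above the vehicle values of 558, 570 and 484 RPKM. Its log2 fold change was 0.51 ± 0.16 (adjusted p = 0.864). Col1a2 stood at 440, 668 and 540 RPKM, against 388, 439 and 365 RPKM in vehicle (log2 fold change 0.47 ± 0.14, adjusted p = 0.864). Replicate 09 was the highest library of all 17 for both genes. Its collagen share of 2.62% of counts was also the highest, and its mitochondrial share of 4.35% the lowest.

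Against 100 mg/kg/d, the libraries at 300 mg/kg/d gave no called collagen gene, where 0.00555% of all genes tested were called. Here 14 of the 44 had an unadjusted p under 0.05, among 4362 of all genes tested, and DESeq2 called 10, among 1145 genes in all. The median log2 difference of the 44 was 0.27, against -0.01 over all genes tested, with 39 values above 0. Col18a1 was 0.55 ± 0.15 higher on the log2 scale (adjusted p = 0.0899) and Col4a4 0.47 ± 0.13 higher (adjusted p = 0.0899). Col2a1 differed by 0.41 ± 0.17 (adjusted p = 0.146) and Col9a3 by 0.09 ± 0.14 (adjusted p = 0.715). Without replicate 19 the test called 17 collagen genes, among 5872 genes in all, and without replicates 05 and 18 it called 0.

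A slope on log2(dose + 1) over all 17 libraries was called for 11 collagen genes, where 5.72% of all genes tested were called. It was positive for 6 genes, Col2a1, Col9a1, Col9a2, Col9a3, Col18a1 and Col19a1, where 2.74% of all genes tested were called as positive. It was negative for 5, Col22a1, Col6a6, Col3a1, Col4a5 and Col5a2, where 2.98% were called as negative. The steepest were Col2a1, with 0.22 ± 0.02 on the log2 scale per unit of log2(dose + 1) (adjusted p = 1.58e-07), and Col22a1, with -0.18 ± 0.02 (adjusted p = 1.86e-05). Col19a1, a fibril-associated gene beside Col9a1, lay at 0.219 to 0.495 RPKM (0.08 ± 0.02, adjusted p = 0.0472). Col5a2 had -0.03 ± 0.01 (adjusted p = 0.0495). Of 22 alternatives, the call was lost in 15 for Col19a1, 17 for Col5a2, 7 for Col4a5, 7 for Col18a1 and 6 for Col3a1. With sample code as a term, 6 slopes were called, among 586 genes in all. All 5 of these genes lost the call there, in the same order with adjusted p values of 0.123, 0.147, 0.155, 0.0969 and 0.117. Without replicate 10 at 1 mg/kg/d, or without vehicle replicate 01 or 15, 7 slopes were called. These stood among 746, 805 and 812 genes in all, in that order. The group means of Col2a1 were 3.18, 2.98, 3.84, 7.39 and 9.81 RPKM from vehicle to the highest dose, so most of its difference lay between 11 and 100 mg/kg/d.

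A test for any difference among the 5 groups called 13 collagen genes, where 6.16% of all genes tested were called. Besides the 7 genes called at 300 mg/kg/d it held Col1a1, Col1a2, Col3a1, Col5a1, Col6a1 and Col6a2. These abundant genes of types I, III, V and VI were highest on average at 1 mg/kg/d and lowest at 100 mg/kg/d, the dose of replicates 05 and 18. The mean sum of the 5 peritubular myoid markers was likewise highest at 1 mg/kg/d (713 RPKM) and lowest at 100 mg/kg/d (461 RPKM). It was 504 RPKM in vehicle. The same held for endothelial markers, with 115 RPKM, 74.1 RPKM and, in vehicle, 106 RPKM. It also held for interstitial fibroblast markers, with 442 RPKM, 393 RPKM and, in vehicle, 439 RPKM. Germ cell markers went the other way, with 142 RPKM at 1 mg/kg/d and 280 RPKM at 100 mg/kg/d. The part of these markers was not tested. Col1a2, for example, averaged 549 ± 114 RPKM at 1 mg/kg/d and 310 ± 34.5 RPKM at 100 mg/kg/d (SD, n = 3 each), with 397 ± 37.4 in vehicle and 408 ± 41.7 at 300 mg/kg/d (n = 5). Its adjusted p was 0.0123, the smallest of these 6 genes. Without replicate 19 at 100 mg/kg/d this test called 22 collagen genes, among 5913 genes in all, and without replicate 18 it called 8, among 517. With sample code as a term it called 7, among 581, and of the 6 abundant genes only Col1a2 was still called. Without replicates 05 and 18 it called 9, among 780.

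The titles of the libraries carry 3 sample codes (S446, S447 and S448), whose meaning is not given. No library at 11, 100 or 300 mg/kg/d has code S446. Within codes S447 and S448, the log2 ratio of 300 mg/kg/d to the single vehicle library was 1.63 and 1.68 for Col2a1, 1.06 and 1.10 for Col9a3, and 1.10 and 1.21 for Col9a1. It was 2.00 and 1.16 for Col9a2, 0.77 and 0.39 for Col18a1, -0.94 and -1.82 for Col22a1, and -0.89 and -1.21 for Col6a6. Each of the 7 genes had the same sign in both codes. This outcome was fixed beforehand, because in each the libraries at 300 mg/kg/d did not overlap with vehicle. For 100 mg/kg/d, Col2a1 gave 0.97 and 1.60, Col9a1 0.69 and 1.34, Col9a3 0.70 and 1.33, Col22a1 -1.06 and -1.99, and Col6a6 -0.91 and -1.85.

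Collagen chains need enzymes and chaperones for their modification and folding. Of 22 such genes 21 were tested, and 1 fell at 300 mg/kg/d. In this list and those that follow, single calls stand beside 0.994% of all genes tested that rose and 1.41% that fell at 300 mg/kg/d, and 0.494% and 1.03% at 100 mg/kg/d. The gene was P4ha1, a catalytic subunit of prolyl 4-hydroxylase, at 28.5, 26.4 and 33.6 RPKM in vehicle and 21.9, 24.9, 24.3, 19.7 and 22.8 RPKM at 300 mg/kg/d. Its log2 fold change was -0.38 ± 0.10 (adjusted p = 0.0397), and -0.45 ± 0.11 at 100 mg/kg/d (adjusted p = 0.0399). Of 14 genes of procollagen processing and crosslinking 13 were tested, and 1 fell, Pcolce, which enhances removal of the C-propeptide. It stood at 199.1, 186 and 221 RPKM in vehicle and at 141, 139.8, 171, 139 and 129 RPKM at 300 mg/kg/d (log2 fold change -0.49 ± 0.11, adjusted p = 0.0214), and also fell at 100 mg/kg/d (-0.62 ± 0.13, adjusted p = 0.0176).

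Of 15 genes of collagen breakdown and its inhibitors 13 were tested, with none called at 300 mg/kg/d and 1 that fell at 100 mg/kg/d. This was Timp3, an inhibitor of metalloproteinases bound to the matrix, at -0.48 ± 0.12 on the log2 scale (adjusted p = 0.0417). Of 9 collagen receptor genes 7 were tested, and Ddr1, a receptor tyrosine kinase that collagen activates, rose at 300 mg/kg/d. Its levels were 38.8, 37.9 and 37.3 RPKM in vehicle and 47.9, 56.0, 61.1, 56.8 and 51.4 RPKM at 300 mg/kg/d (log2 fold change 0.52 ± 0.10, adjusted p = 0.00702). Of 16 partners of type IV collagen in basement membranes 15 were tested, and Nid2, which links laminin to type IV collagen, rose (0.56 ± 0.14, adjusted p = 0.0385). None of 6 collagen-binding proteoglycans tested, of 9 listed, was called at either dose. Their most abundant members, Dcn and Bgn, overlapped with vehicle at 300 mg/kg/d.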

How the data were processed

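PolyA-selected RNA of fetal testis was sequenced in 17 libraries. Per the submitters' processing notes, the authors used Trimmomatic 0.36, STAR 2.5.2b, featureCounts of Subread 1.5.2 and the build mRatBN7.2, and also name DESeq2 and limma. The deposited files give raw counts per gene with the exon length, per the file headers. The annotation release and whether counting used strand are not stated there, and the kit named per the labels does not mark strand. The deposited table of all libraries repeated rows (47125 for 30652 identifiers, none differing from the files per library). Deposited tables of TPM and log2 values were not used here.

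The 92 spike-in rows were left out. Tests were edgeR's quasi-likelihood F tests (edgeR 4.0.16, run under R 4.3.3, with TMM, filterByExpr by dose group, 1 fit of all 17 libraries), with Benjamini-Hochberg adjustment over all genes tested and calls at an adjusted p under 0.05. Each SE is the absolute log2 fold change divided by the root of its F. RPKM were computed from the counts with TMM-scaled library sizes and the deposited exon lengths. The code was tested on simulated data. Tests covered 7 comparisons, and alternatives were another normalization, no filter, DESeq2 1.42.0, the sample code as a term, only the compared groups, and libraries left out.

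Members, gene lists and tests were chosen with earlier results of these data known. Named genes are all members called in any comparison, the 2 highest of each class, the 3 with the smallest p in each comparison, the head-to-head type IV pairs, and up to 4 called members of each other list or its 2 highest. Other members are named to account for their class, chosen after their values were seen. Part of the Schwann cell marker list is not reported here.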

Additional observations from a re-analysis of the deposited data

How the results depend on the processing

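Over 14 alternatives of 300 mg/kg/d against vehicle, Col2a1, Col9a1, Col9a3 and Col22a1 were called in every one. With only the compared groups in the fit, 11 collagen genes were called at 300 mg/kg/d in place of 7 (835 of all genes in place of 432), and 3 at 100 mg/kg/d in place of 5 (45 in place of 274). DESeq2 called 11 at 100 mg/kg/d (910 of all genes), and 10 for 300 against 100 mg/kg/d in place of 0 (1145 in place of 1), where the test without a low-count filter called 1 (225). With the sample code in the fit, 6 slopes were called in place of 11 (586 of all genes in place of 1030), and 7 genes in place of 13 differed among the 5 groups (581 in place of 1109). Without replicates 05 and 18 at 100 mg/kg/d, 2 genes were called at that dose (73 of all genes). Leaving out 1 library at a time gave 5 to 8 called genes at 300 mg/kg/d (212 to 432 of all genes). It gave 3 to 16 at 100 mg/kg/d (93 to 4250), 0 at 11 mg/kg/d (0 to 2) and 0 at 1 mg/kg/d (0). For 300 against 100 mg/kg/d it gave 0 to 17 (0 to 5872). It gave 7 to 11 slopes (746 to 1503) and 8 to 22 genes that differed among the 5 groups (517 to 5913). The highest counts at 100 mg/kg/d, for 300 against 100 mg/kg/d and among the 5 groups came without replicate 19, the lowest among the 5 groups without replicate 18, and the cause was not tested.

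Of 23 calls of single collagen genes, 11 were kept in every alternative and 12 were lost in some. The slope of Col5a2 lost its call in 17 of 22 alternatives and that of Col19a1 in 15 of 22. Signs were read only for named genes, in comparisons where the main test or some alternative called the gene. Over 864 such values the sign turned in 6, none of them called. Without replicates 05 and 18 at 100 mg/kg/d, Col4a1, Col4a2 and Col15a1 had log2 fold changes against vehicle of 0.10, 0.095 and 0.091, and for 300 against 100 mg/kg/d Col15a1 had -0.30 and Col23a1 -0.18. Without replicate 05 alone Col23a1 had -0.0018, and without replicate 19 it had 0.46. No paired analysis was possible because the groups share no replicate number; the sample code, which groups do share, was fitted as a term instead. Genes with few counts, such as Col8a1, Col10a1 and Col28a1, had standard errors of 0.49 to 0.64 (log2) at 300 mg/kg/d. The other collagen genes had 0.09 to 0.29, and the part of depth in this was not tested.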
